A study of Homo sapiens with 16 samples.

Results

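The response of melanoma metastases to combined BRAF and MEK inhibition in mice on a high fat diet was described across all expressed genes. The comparison set the 4 libraries of high fat, inhibitor-treated metastases against the 4 of high fat metastases that received no inhibitor, which are called untreated here, and so took 8 of the 16 libraries of the series. The libraries were chosen by their labels, with no measured value. The poly-A RNA came in every library from A375 MA2-Luc, an established human melanoma line that carries a luciferase reporter, injected behind the eye of NSG mice, a strain that lacks T, B and natural killer cells, and the labels call each sample a lung metastasis. The treated mice received inhibitors of the BRAF kinase and of MEK 1/2 by oral gavage 3 times a week for 5 weeks. The labels name neither compound nor dose, and do not say whether untreated mice had a vehicle by gavage, so the effects of inhibitors and of gavage cannot be told apart. The other 8 libraries, from the same line in mice on a ketogenic diet with or without the inhibitors, entered the same model and are used only to show where the high fat response differed. All 16 samples come from 1 line and 1 host strain, replicates are called biological without a statement that each is its own mouse, and p-values measure the spread between these libraries.

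BRAF is the kinase that RAS proteins switch on; it phosphorylates MEK1 and MEK2 (genes MAP2K1 and MAP2K2), which phosphorylate the ERK kinases. A375 carries an activating mutation of BRAF, so the cascade runs without RAS input and drives the division of these cells. Active ERK raises the transcripts of its own antagonists, the DUSP phosphatases and the Sprouty and SPRED proteins, whose levels are commonly read as a measure of pathway output, and cells that grow under inhibition often regain that output.

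The 8 libraries held 51964395 to 64481640 estimated counts, and levels are given as CPM, counts brought to a common total, on library sizes scaled by TMM, a trimmed mean of ratios between libraries. Ribosomal RNA took 21.7 to 50.01% of the counts in untreated libraries, above 30% in replicates 2 and 3, and 15.01 to 19.97% in treated ones. Untreated replicate 4 and treated replicate 1 stood furthest from their own groups, each with a mean correlation of 0.9697 to the other 3, and treated replicate 1 had a count for 16638 genes against 18062 to 18225 in the other treated libraries. Melanocytic markers were present throughout (summed level of 9 markers 2592 to 4937 CPM untreated, 2357 to 3405 treated, CSPG4 the highest), and those of lung epithelium were near 0 (sum 1.28 to 3.21 CPM over the 8 libraries, SCGB1A1 and AQP5 at 0, AGER the 1 member tested and lower). Markers of other cells moved with the treatment. The summed level of 10 endothelial markers was 18.2 to 38.3 CPM untreated and 74.97 to 84.3 treated (KDR and ROBO4 higher of 7 tested). Nearly all of that sum was KDR, with means of 21.8 and 75.1 CPM, while PECAM1, VWF, CDH5, EMCN and TIE1 had means under 1 CPM in both groups. For 10 erythroid and plasma markers it was 6.80 to 8.53 and 35.6 to 72.4 CPM (5 of 5 tested higher, TTR the most abundant). For 10 leukocyte markers it was 1.73 to 2.63 and 7.25 to 9.66 CPM (CORO1A and LCP1 higher of 5 tested, CD2 at 0). Most of that sum was CORO1A (means of 0.81 and 5.28 CPM) and LCP1 (0.47 and 1.89 CPM). The other leukocyte markers stayed under 1 CPM in every library. LAPTM5, CD37 and CD79A had lower means treated than untreated. PTPRC, CD3E and CD53 were highest in treated replicate 1, and their means and that of CD52 were higher treated. Markers of fibroblasts and smooth muscle went the other way, from 90.6 to 103 CPM untreated to 33.8 to 56.3 CPM treated (ACTA2 and PDGFRB lower, COL3A1 higher of 9 tested). The lower sum rested on ACTA2 (means of 59.1 and 16.3 CPM) and PDGFRB (27.1 and 14.3 CPM), while the fibroblast genes COL1A2, DCN and LUM had higher means treated than untreated and did not pass. For macrophage and neutrophil markers the sum was 45.4 to 60.8 and 33.5 to 52.9 CPM (1 higher and 1 lower of 5 tested, MPO at 0). Their part in the results below was not tested, and in such bulk samples fewer cells of a type cannot be told apart from less RNA per cell.

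Of 16012 genes tested with edgeR's quasi-likelihood test, 3295 (20.6%) were higher and 3476 (21.7%) lower with inhibitors at a Benjamini-Hochberg adjusted p under 0.05, 42.3% in all; the 2 groups of libraries did not overlap for 44.7%. The median log2 fold change of all genes tested was -0.03. Among called genes the median log2 fold change was 0.60 for the higher and -0.80 for the lower, 1585 of the higher and 1115 of the lower changed less than 1.5-fold, and 131 and 375 changed more than 4-fold. Genes of the cell cycle, histone genes and ribosomal RNA were set aside here; without them 6620 of 15731 genes (42.1%) still passed. Level and kind of gene went with direction. In the lowest quintile of protein-coding genes by mean level, 8.07% were higher and 22.8% lower; in the highest quintile, 33.7% were higher and 15.4% lower. Of 1051 long non-coding RNAs, 62 were higher and 304 lower (median -0.40), against 3175 and 2902 of 14010 protein-coding genes (median 0.01). The split depends on the scaling. With library size alone in place of TMM, 4856 genes were higher and 1231 lower, because the median of all genes tested moved up by 0.28. On that scale 80 of the 6771 calls changed sign. Library size alone still counts ribosomal RNA, whose share was larger in untreated libraries. With ribosomal RNA genes removed before TMM scaling, 3415 genes were higher and 3397 lower. Of the genes named here, the 124 higher ones kept their call with library size alone and 60 of the 108 lower ones did. Without the 3 libraries above 30% ribosomal RNA (untreated replicates 2 and 3 and a ketogenic one), 3858 genes passed, 1750 higher and 2108 lower. Of the untreated libraries replicates 1 and 4 were left, and 0 of the 6771 calls changed sign. Higher members then numbered 11 rather than 25 for the spliceosome, 12 rather than 35 for mitochondrial ribosomal proteins and 10 rather than 20 for complex I. They numbered 4 rather than 12 for the unfolded protein response, 20 rather than 27 for the proteasome and 18 rather than 20 for lysosomal genes, all described below. The medians of these lists, in that order, were 0.38, 0.21, 0.29, 0.13, 0.55 and 0.36, rather than 0.46, 0.29, 0.39, 0.24, 0.60 and 0.37.

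**Figure D1:**
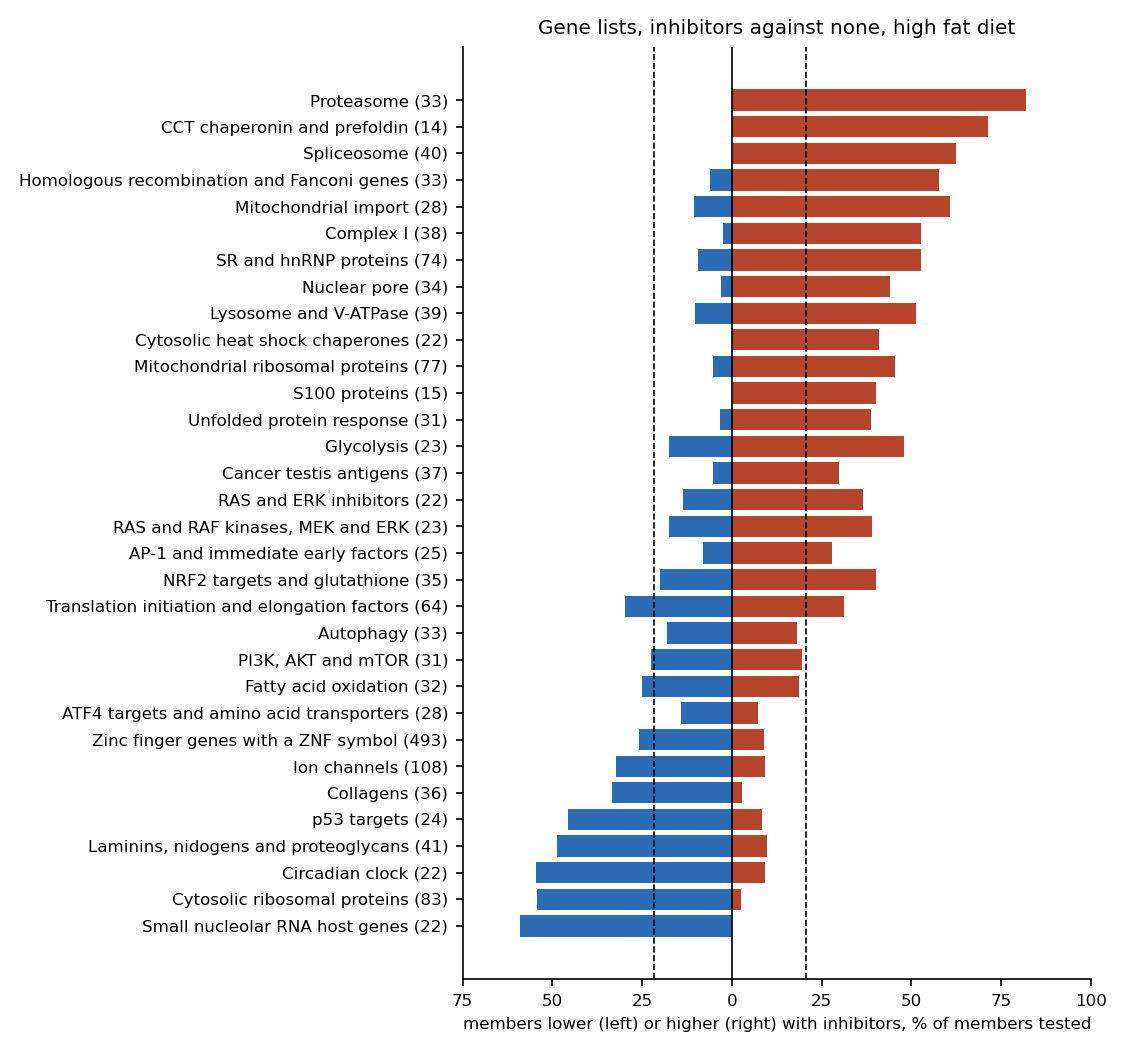
Share of the tested members of 32 gene lists that were higher (right) or lower (left) with inhibitors on the high fat diet, in percent of the members tested; the number tested stands after each name. Dashed lines mark the shares over all genes tested, 20.6% higher and 21.7% lower. Proteasome, CCT chaperonin and spliceosome genes reach furthest right, and small nucleolar RNA host, circadian clock and cytosolic ribosomal protein genes furthest left.

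Genes of the drug targets and of their neighbours in the cascade changed in both directions. Of 23 tested genes for RAS, RAF, MEK, ERK and their adaptors, 9 rose and 4 fell, against 20.6% and 21.7% of all genes. BRAF itself (chromosome 7, 140719327 to 140924928) read 17.9, 18.6, 20.1 and 21.2 CPM without inhibitors and 13.8, 12.4, 12.2 and 10.9 CPM with them. The groups did not overlap, and BRAF fell (log2 -0.66, SE 0.11, adjusted p = 0.000416). ARAF, a kinase of the same family, rose by 0.35 (SE 0.08). MAP2K1 (chromosome 15, 66386817 to 66492312), the gene of MEK1, stood at 54.0, 50.5, 49.8 and 60.9 CPM without inhibitors and 62.1, 62.5, 65.9 and 65.3 CPM with them, a rise of 0.25 (SE 0.09, adjusted p = 0.0305) that did not pass when any of 5 of the 8 libraries was left out (adjusted p up to 0.0923, without untreated replicate 3). MAP2K2, the gene of MEK2, had a log2 fold change of -0.06 and did not pass (adjusted p = 0.719). MAPK3, the gene of ERK1, was at 0.10 and did not pass.

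Upstream of RAF, RAS genes rose. HRAS (chromosome 11, 532242 to 537287) was at 16.2, 11.7, 11.7 and 16.1 CPM without inhibitors and 27.4, 31.0, 37.3 and 36.7 CPM with them, with every treated library above every untreated one (log2 1.25, SE 0.20, adjusted p = 0.000228). NRAS rose by 0.52 (SE 0.11), as did GRB2, the adaptor that ties receptors to RAS (log2 0.55, SE 0.09), and SHOC2, a scaffold that helps RAF activation (log2 0.29, SE 0.10). The RAS relatives RRAS (-0.83, SE 0.22) and RRAS2 (-0.32, SE 0.10) fell, and so did KSR1, the scaffold that holds RAF, MEK and ERK (log2 -1.13, SE 0.27). The exchange factors SOS1 and SOS2, the adaptors GAB1, GAB2 and SHC1, the phosphatase PTPN11, the RAS relative MRAS and the scaffold LAMTOR3 did not pass, with log2 fold changes of 0.07, 0.10, -0.17, -0.33, 0.01, -0.02, 0.03 and 0.26 in that order.

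Negative regulators of RAS and ERK, some of them induced by ERK itself, showed no common fall. Of 22 tested, 8 rose and 3 fell (median 0.22), against 20.6% and 21.7% of all genes. The 22 also hold genes outside the DUSP, Sprouty and SPRED families, such as NF1, PEA15, PEBP1 and RAS GTPase activators. DUSP6, the ERK phosphatase most often used as a readout of the pathway, was at 218, 249, 212 and 485 CPM without inhibitors and 510.1, 457, 448 and 449 CPM with them. Untreated replicate 4 was level with the treated libraries and the other 3 untreated ones were far below them. DUSP6 rose by 0.68 (SE 0.22, adjusted p = 0.0196). DUSP1, DUSP2, DUSP7 and DUSP10, phosphatases of ERK, JNK and p38, rose by 0.77, 1.32, 0.32 and 0.72. SPRED1, which brings the RAS brake NF1 to the membrane, rose (log2 0.41, SE 0.09), as did PEA15, which keeps ERK in the cytoplasm (log2 0.57, SE 0.14), and PEBP1, which binds RAF kinases (log2 0.33, SE 0.12).

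The Sprouty genes moved against them. SPRY4 was at 407, 468, 457 and 631 CPM without inhibitors and 386, 309, 291 and 281 CPM with them, with no overlap (log2 -0.63, SE 0.18, adjusted p = 0.00933). SPRY1 fell from 13.1 to 6.24 CPM (log2 -1.07, SE 0.36), and NF1 fell by 0.53 on the log2 scale (SE 0.16). SPRY2, at -0.39, did not pass (adjusted p = 0.106), nor did DUSP4 (0.08), DUSP5 (0.34), DUSP9 (-0.43), SPRED2 (0.03), SPRED3 (-0.21) or the RAS GTPase activators RASA1, RASA2, RASA3, RASAL2 and DAB2IP (0.23, 0.15, -0.15, 0.24 and 0.20). Calls in this family were fragile: DUSP2, DUSP6, SPRY1, NF1, SHOC2 and PEBP1 each missed the threshold when some single library was left out. The highest adjusted p was 0.0643 for DUSP6, without untreated replicate 1. It was 0.0549 for DUSP2, 0.0808 for SPRY1, 0.0533 for NF1, 0.0936 for SHOC2 and 0.105 for PEBP1, all without treated replicate 3.

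**Figure D2:**
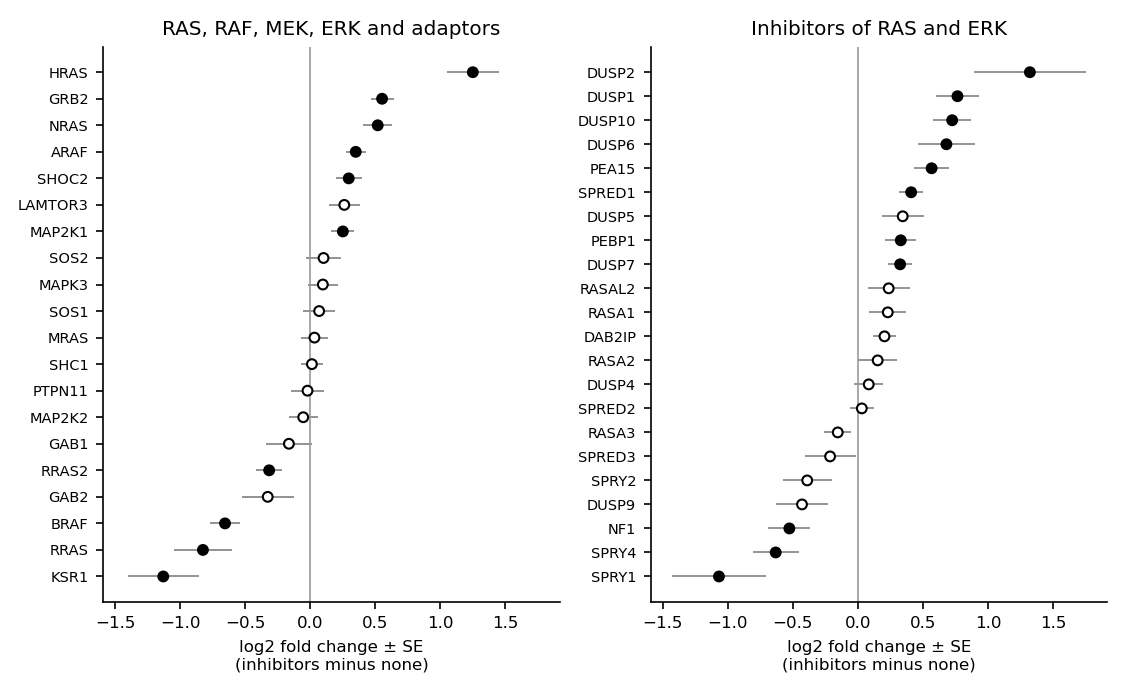
Log2 fold change (inhibitors minus none, high fat diet) with its standard error for 42 tested genes of the RAS, RAF, MEK and ERK cascade and of its inhibitors, each from 4 against 4 libraries. Filled points passed the test at an adjusted p under 0.05. HRAS stands furthest right in the cascade at 1.25 and KSR1 furthest left at -1.13; DUSP2 and SPRY1 are at the ends of the inhibitors.

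Transcripts that ERK drives were mixed as well. Of 25 such genes, 6 rose and 4 fell (24% and 16%, median 0.31), against 20.6% and 21.7% of all genes. When untreated replicate 4 was left out, 10 rose. HMGA2, a chromatin protein of growing mesenchymal cells, rose from 107 to 204 CPM (log2 0.93, SE 0.11, adjusted p = 2.65e-05). PHLDA2 and IER3, a growth-restraining and a survival factor, rose by 1.13 and 0.95. EPHA2, an ephrin receptor, fell by 1.09 on the log2 scale (SE 0.24), and PHLDA1 and the ETS factor ETV4 had log2 fold changes of -0.56 and -0.41, both past the test. Among the best known growth targets these 4 did not pass: MYC at -0.28, CCND1 at 0.02, ETV5 at -0.01 and FOSL1 at 0.25.

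Among immediate early genes the rise was led by 1 of them. JUN (chromosome 1, 58780788 to 58784327), the core of the AP-1 transcription factor, was at 9.97, 7.97, 8.11 and 13.4 CPM without inhibitors and 53.3, 48.6, 55.4 and 55.9 CPM with them. Every treated library was far above every untreated one, a 5.39-fold rise (log2 2.43, SE 0.33, adjusted p = 9.39e-05). Of 25 immediate early genes tested 7 rose and 2 fell (28% and 8%), against 20.6% and 21.7% of all genes. NR4A2, an orphan nuclear receptor induced by many stimuli, rose by 1.05 (SE 0.17). ZFP36, which destroys inflammatory transcripts, fell by 0.72 on the log2 scale (SE 0.19). EGR1 did not pass and its untreated libraries were at 25.6, 43.1, 26.2 and 135 CPM, replicate 4 far above the rest. The JNK kinase MAPK8, which activates JUN, rose from 9.68 to 18.9 CPM (log2 0.96, SE 0.12).

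Growth signalling beyond the MAPK cascade did not move as a block. Of 31 genes of the PI3K, AKT and mTOR pathway 6 rose and 7 fell (19.4% and 22.6%), near the 20.6% and 21.7% of all genes. Of 27 receptor tyrosine kinases 4 rose and 7 fell, with a median of -0.23 that turned to 0.03 with library size alone. ERBB3, the neuregulin receptor of the melanocyte lineage, was at 454, 521, 484 and 729 CPM without inhibitors and 361, 324, 351 and 349 CPM with them. It fell with no overlap (log2 -0.66, SE 0.14, adjusted p = 0.00138). MET rose (log2 0.49, SE 0.13), while EGFR (-0.45) and AXL (0.10), receptors often discussed in resistance to these drugs, did not pass. KDR, a receptor of endothelial cells that melanoma cells can also express, rose from 21.8 to 75.1 CPM (log2 1.78, SE 0.24); it makes up nearly all of the endothelial marker sum given above, in which most other markers stayed near 0.

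Genes of the proteasome and of cytosolic chaperones rose, and none of their members fell. Of 33 tested proteasome genes 27 rose and 0 fell (median 0.60), against 20.6% of all genes higher. They came from all parts of the particle: PSMA4 of the core rose from 89.3 to 163 CPM (log2 0.87, SE 0.14), the base ATPase PSMC3 from 97.5 to 196 CPM (log2 1.01, SE 0.16), and the lid subunit PSMD6 read 91.3, 93.3, 81.0 and 80.9 CPM without inhibitors and 141, 159.8, 177 and 174 CPM with them. PSMD6 showed no overlap and had the smallest p of the list (log2 0.91, SE 0.12, adjusted p = 5.87e-05). The members that did not pass were PSMB5, PSMB7, PSMD4, PSMD7, PSMD8 and PSME4, between -0.14 and 0.36. Leaving out single libraries gave 26 to 29 higher members. Of 14 subunits of the CCT chaperonin, which folds actin and tubulin, and of its partner prefoldin, 10 rose and 0 fell (median 0.33); VBP1, a prefoldin subunit, rose by 0.55 (SE 0.11).

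Cytosolic heat shock genes rose in part: 9 of 22 rose and 0 fell (median 0.42), against 20.6% and 21.7% of all genes. The constitutive and stress-induced chaperone HSP90AA1 was at 816, 896, 807 and 507 CPM without inhibitors and 1353, 1529, 1796 and 1936 CPM with them, so that the highest untreated library was below the lowest treated one (log2 1.13, SE 0.21, adjusted p = 0.000699). CRYAB, a small heat shock protein, rose from 6.86 to 17.5 CPM (log2 1.35, SE 0.20), and the HSP90 co-chaperone STIP1 and the HSP70 partner HSPH1 rose by 0.53 and 0.64. The inducible HSPA1A (0.30) and DNAJB1 (0.41) did not pass.

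In the endoplasmic reticulum the unfolded protein response list had 12 of 31 genes higher and 1 lower (median 0.24), against 20.6% and 21.7% of all genes. The risers were lumenal chaperones and degradation factors. EDEM1, which marks misfolded glycoproteins for disposal, rose from 39.4 to 84.8 CPM (log2 1.10, SE 0.18, adjusted p = 0.000285). The lectin chaperone CALR was at 531, 525, 482 and 564 CPM without inhibitors and 866, 870.2, 855 and 904 CPM with them, with no overlap (log2 0.73, SE 0.14). CRELD2 (log2 0.90, SE 0.16), the disulfide isomerases PDIA4 (log2 0.50, SE 0.14) and PDIA6 (log2 0.36, SE 0.11) and the co-chaperone DNAJB11 (log2 0.65, SE 0.11) rose too. In the ATF4 and CHOP arm DDIT3, the gene of CHOP, was at -1.36 (SE 0.71, adjusted p = 0.136) and TRIB3 at -0.86 (adjusted p = 0.308). HSPA5, the gene of BiP, was at 0.29 (adjusted p = 0.198). None of these passed. Untreated replicate 4 was far above the other untreated libraries for DDIT3, TRIB3 and HSPA5. TRIB3 was at 0.03 without that library and treated replicate 1. Higher members of the whole list numbered 9 to 16 without single libraries, 16 without untreated replicate 4. SERP1, a stress-associated translocon protein, was the 1 that fell (log2 -0.30, SE 0.11). Of 36 genes for translocation and N-glycosylation 14 rose and 2 fell; without single libraries 8 to 20 rose, 8 or 9 without untreated replicate 1, 2 or 3 or treated replicate 3.

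Lysosomal genes rose mainly through the proton pump. Of 39 tested genes 20 rose and 4 fell (median 0.37), against 20.6% and 21.7% of all genes. The V-ATPase, which acidifies the lysosome, gave 12 of the 20, counting its accessory proteins ATP6AP1 and ATP6AP2, and 3 more of its subunits did not pass. ATP6V0D1 (chromosome 16, 67438014 to 67481237) was at 24.4, 28.3, 25.6 and 20.6 CPM without inhibitors and 54.9, 61.0, 62.0 and 64.2 CPM with them. The lowest treated library was far above the highest untreated one (log2 1.29, SE 0.11, adjusted p = 4.88e-06). ATP6V1H and ATP6V0C, further pump subunits, rose by 0.88 and 1.01 (SE 0.08 and 0.12). Among enzymes and channels, the protease CTSB rose from 605 to 928 CPM (log2 0.62, SE 0.13), CTSA by 0.70 and the calcium channel MCOLN1 by 0.67. TFEB, the transcription factor that controls lysosomal genes, fell from 3.30 to 1.92 CPM (log2 -0.78, SE 0.22), and its relative TFE3 was at -0.01. The sulfatase SGSH, the cholesterol transporter NPC1 and the galactosidase GLB1 fell by 0.44, 0.34 and 0.24 on the log2 scale, GLB1 with a value of 0.04 with library size alone. GLB1 did not pass when any of 7 of the 8 libraries was left out, nor NPC1 for any of 4 (adjusted p up to 0.11 without treated replicate 3 and 0.147 without untreated replicate 4). Of 33 autophagy genes 6 rose and 6 fell (18.2% each), near the shares of all genes.

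Motifs known for the regulators of these groups were counted in their promoters. The lists hold known members of each pathway, so their share of promoters with a motif is a property of the lists and not of the treatment. The stretches of 100 bases below, from the 250 bases upstream of the RefSeq start (GRCh38.p14, 5′ to 3′ on the gene's strand), belong to genes that passed the test and are shown because each holds the motif of its group. The lysosomal motif TCACGTGA, bound by TFEB and its relatives and the same on both strands, was in the 250 bases upstream of 5 of 23 lysosomal genes with an entry (5 of 14 higher ones, 0 of 3 lower ones), against 1.04% of 27305 genes. Capitals mark it.
ATP6V0D1 (chr16:67481164-67481263, minus strand): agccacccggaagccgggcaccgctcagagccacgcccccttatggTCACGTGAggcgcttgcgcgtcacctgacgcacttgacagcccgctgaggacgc
MCOLN1 (chr19:7522524-7522623, plus strand): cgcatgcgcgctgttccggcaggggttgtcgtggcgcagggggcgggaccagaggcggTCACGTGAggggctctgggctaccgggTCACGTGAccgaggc
CTSA (chr20:45891235-45891334, plus strand): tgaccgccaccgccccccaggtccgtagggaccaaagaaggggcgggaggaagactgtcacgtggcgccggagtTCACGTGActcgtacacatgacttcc

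The element of the unfolded protein response, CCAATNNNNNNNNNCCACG or its reverse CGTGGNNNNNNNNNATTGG, bound by ATF6 with NF-Y, was upstream of 8 of 29 genes of that list, against 0.0916% of all genes. Of 10 higher genes 3 held it; the 1 lower gene, SERP1, held it too, and so did 4 that did not pass, HSPA5, HSP90B1, CANX and XBP1. Capitals mark the element on either strand.
CALR (chr19:12938359-12938458, plus strand): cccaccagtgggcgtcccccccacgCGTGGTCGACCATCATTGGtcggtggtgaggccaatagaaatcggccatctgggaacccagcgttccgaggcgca
CRELD2 (chr22:49918513-49918612, plus strand): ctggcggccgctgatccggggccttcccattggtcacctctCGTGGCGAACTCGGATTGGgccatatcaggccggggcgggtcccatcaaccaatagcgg
PDIA6 (chr2:10812813-10812912, minus strand): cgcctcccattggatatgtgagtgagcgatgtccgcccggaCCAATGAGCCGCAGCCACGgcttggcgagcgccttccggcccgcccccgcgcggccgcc
The heat shock element, here GAANNTTCNNGAA or its reverse TTCNNGAANNTTC, was upstream of 4 of 20 heat shock genes against 0.557% of all genes, of which HSP90AA1 rose and DNAJB6, HSP90AB1 and HSPA8 did not pass.
HSP90AA1 (chr14:102087077-102087176, minus strand): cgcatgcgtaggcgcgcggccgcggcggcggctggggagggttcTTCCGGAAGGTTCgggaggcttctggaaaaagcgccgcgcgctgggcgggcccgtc
A match is only a run of letters and says nothing of a factor's binding in these cells.

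RNA processing genes rose as a second block. Of 40 spliceosome genes 25 rose and 0 fell (median 0.46), against 20.6% and 21.7% of all genes. Of 74 SR, hnRNP and RBM genes 39 rose and 7 fell (median 0.35). U2AF1, which recognises the end of an intron, was at 51.5, 41.6, 39.7 and 31.2 CPM without inhibitors and 83.9, 85.4, 89.5 and 80.1 CPM with them, with no overlap (log2 1.05, SE 0.14, adjusted p = 7.85e-05). SF3B4 and SNRPB, parts of the small nuclear ribonucleoproteins, rose by 1.09 and 0.99. SRSF6, a splicing enhancer protein, rose from 95.7 to 211 CPM (log2 1.14, SE 0.12, adjusted p = 1.80e-05), HNRNPM from 124 to 372 CPM (log2 1.58, SE 0.18) and SRSF3 from 116 to 302 CPM (log2 1.38, SE 0.19). HNRNPA2B1 was one of the 10 largest gains in level of all genes, 664, 629.7, 589.7 and 489 CPM without inhibitors and 1165, 1286, 1275 and 1321 CPM with them (log2 1.09, SE 0.18, adjusted p = 0.000229). Of 34 genes of the nuclear pore and its transport 15 rose and 1 fell, the 1 being POM121L2 at under 1 CPM in every library. NUP50, which helps import, rose by 0.78 (SE 0.09).

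DNA repair genes rose where they serve homologous recombination. Of 33 genes of that pathway and of the Fanconi anaemia pathway 19 rose and 2 fell (median 0.61), against 20.6% and 21.7% of all genes. Of 37 genes of mismatch, excision and end-joining repair 9 rose and 6 fell (24.3% and 16.2%, median 0.03), nearer to those shares. FANCL, the ubiquitin ligase of the Fanconi pathway, rose from 33.2 to 54.8 CPM (log2 0.72, SE 0.11, adjusted p = 0.000139) and BRCA1 from 22.3 to 48.7 CPM (log2 1.13, SE 0.26). RAD52, an accessory of strand annealing, fell (log2 -0.65, SE 0.13). Many of these genes are expressed in S phase, and of 200 tested cell cycle genes 139 rose and 4 fell (median 0.97); the part of the cell cycle in the repair genes was not tested. UHRF1, which guides DNA methylation after replication, rose from 15.3 to 68.0 CPM (log2 2.16, SE 0.26).

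Cytosolic ribosomal protein genes fell while the mitochondrial ones rose. Of 83 cytosolic ribosomal protein genes 45 fell and 2 rose (median -0.42), against 21.7% of all genes lower. With library size alone, which counts ribosomal RNA, 1 fell and 4 rose, with a median of -0.16 beside 0.25 for all genes. With ribosomal RNA genes removed before scaling 45 fell and 2 rose. The fall is stated relative to other transcripts. Without untreated replicate 1, treated replicate 2 or treated replicate 4 the number lower was 24, 28 or 19, and 21 without both libraries that stood apart (untreated replicate 4 and treated replicate 1). RPL12 read 1454, 1168, 1396 and 1728 CPM without inhibitors and 720.0, 678, 698 and 564 CPM with them, with no overlap (log2 -1.11, SE 0.19, adjusted p = 0.000356). RPS6, RPS2, RPL13A, RPL4 and RPS3 were also among the 10 largest losses in level and fell by 0.51, 0.60, 0.54, 0.64 and 0.64 on the log2 scale. RPL13A did not pass when untreated replicate 1 was left out (adjusted p = 0.0792). RPS26 rose (log2 0.73, SE 0.15). Ribosomal protein genes have many processed pseudogenes, so their counts could be split between near-identical copies.

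Elongation factors followed the ribosomal proteins. EEF1A1, which brings transfer RNA to the ribosome, was at 10809, 9650, 10413 and 12115 CPM without inhibitors and 8446, 7407, 7978 and 6863 CPM with them, the largest loss in level of any gene outside the ribosomal RNA, cell cycle and histone genes. Its highest treated library was below its lowest untreated one (log2 -0.49, SE 0.14, adjusted p = 0.0112). EEF2 and EEF1G fell by 0.52 and 0.53 on the log2 scale (SE 0.14 and 0.13). Initiation factors split, so that of 64 initiation and elongation factors 20 rose and 19 fell. With library size alone, which counts ribosomal RNA, 22 rose and 2 fell, so most falls in this list did not pass on that scale. With ribosomal RNA genes removed before scaling 20 rose and 18 fell. EIF4A2, an RNA helicase, fell from 471 to 195 CPM (log2 -1.27, SE 0.17, adjusted p = 7.86e-05), whereas EIF5A, which relieves stalled ribosomes, rose from 313 to 679 CPM (log2 1.12, SE 0.17, adjusted p = 0.000141) and the scaffold EIF4G1 rose by 0.84.

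Of 77 mitochondrial ribosomal protein genes 35 rose and 4 fell (median 0.29), against 20.6% and 21.7% of all genes. MRPL16, of the large subunit, was at 36.9, 40.3, 36.0 and 36.2 CPM without inhibitors and 61.0, 62.4, 68.4 and 70.4 CPM with them, with no overlap (log2 0.81, SE 0.11, adjusted p = 6.98e-05), and MRPS5, of the small subunit, fell (log2 -0.43, SE 0.10). Genes of ribosome biogenesis gave 18 higher and 10 lower of 47. NOP58 and NOP56, proteins of the box C/D particles that methylate ribosomal RNA, rose by 0.78 and 0.50, and TAF1D, a factor of RNA polymerase I whose gene hosts small nucleolar RNAs, fell from 123 to 39.0 CPM (log2 -1.65, SE 0.15, adjusted p = 5.13e-06).

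Host genes of small nucleolar RNAs fell more often than they rose. Of 22 tested 13 fell and 0 rose (median -0.61), against 21.7% and 20.6% of all genes, with 10 to 14 lower without single libraries. With library size alone 7 fell and 1 rose (median -0.35). GAS5 (chromosome 1, 173863900 to 173868882), a non-coding host whose spliced RNA is unstable, was at 406, 315, 392 and 1156 CPM without inhibitors and 134, 109, 165 and 104 CPM with them. Untreated replicate 4 was the highest and all treated libraries lay below all untreated ones (log2 -2.15, SE 0.45, adjusted p = 0.00193). C6orf48 was at 147, 101, 126 and 370.3 CPM without inhibitors and 49.0, 33.7, 40.6 and 25.6 CPM with them (log2 -2.32, SE 0.49, adjusted p = 0.00221), again highest in untreated replicate 4. SNHG8, ZFAS1 and EPB41L4A-AS1 fell by 1.504, 1.80 and 1.94 on the log2 scale (SE 0.28, 0.46 and 0.36). These 5 hosts and 5 others also had an effect below that on the ketogenic diet.

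Long non-coding RNA fell beside RNA that lacks a poly-A tail. Of 682 antisense and intergenic non-coding RNAs 194 fell and 36 rose (28.4% and 5.28%, median -0.40), against 21.7% of all genes lower and 20.6% higher. With library size alone 97 fell and 51 rose. In the lowest quintile of protein-coding genes by mean level 22.8% fell and 8.07% rose (median -0.37). The part of level in the falls of non-coding and ZNF genes was not tested. Of 493 genes with a ZNF symbol, mostly repressors with zinc fingers, 128 fell and 44 rose (median -0.18), a split that turned with library size alone, where 35 fell and 81 rose (median 0.10). FOXD2-AS1 fell from 15.2 to 5.45 CPM (log2 -1.48, SE 0.17) and ZNF204P, a transcribed pseudogene, from 8.17 to 2.41 CPM (log2 -1.76, SE 0.17). Antisense genes cannot be told apart from their partners if the counts ignore strand, which is not given in the sources used here. Small RNAs without a tail, ribosomal RNA aside and on totals without it, were at 993 to 5766 CPM untreated and 482 to 663 treated; 22 of 65 tested fell and 0 rose (median -1.86). Replication-dependent histone genes were at 86.9 to 206 and 78.1 to 105 CPM on the same scale, with 4 of 61 lower. Their part in the falls of the non-coding genes was not tested. Without the libraries above 30% ribosomal RNA 123 of the 682 non-coding RNAs fell and 13 rose, and 86 and 14 of the ZNF genes.

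**Figure D3:**
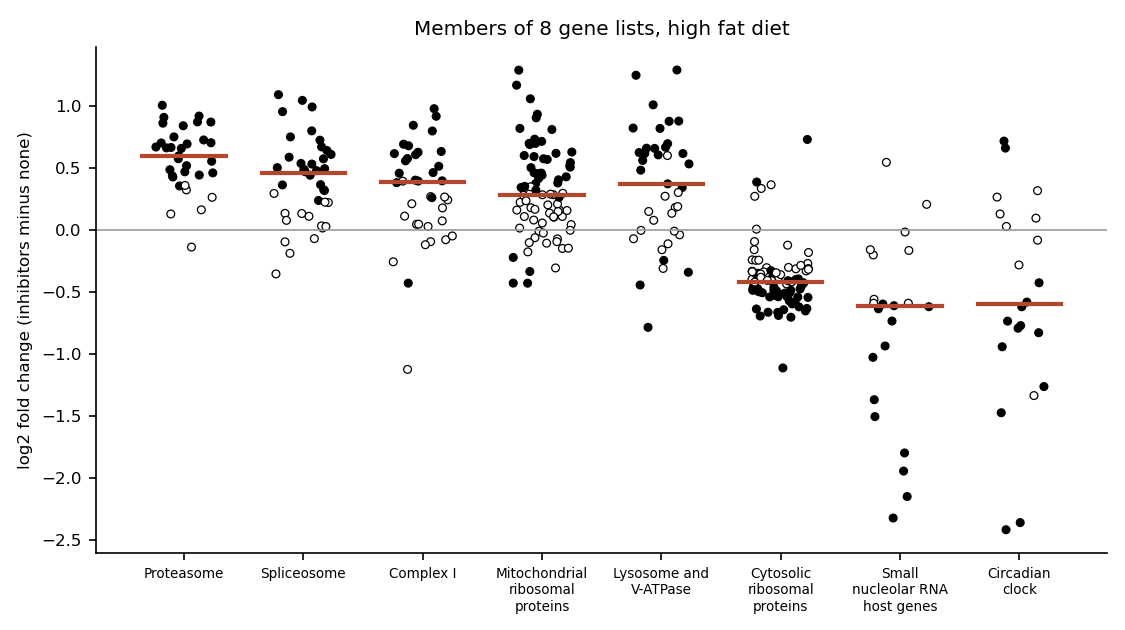
Log2 fold change (inhibitors minus none, high fat diet) of every tested member of 8 gene lists; each point is 1 gene, filled where it passed the test, and the bar is the median of the list. Proteasome, spliceosome, mitochondrial ribosomal protein and complex I genes lie mostly above 0, and cytosolic ribosomal protein, small nucleolar RNA host and clock genes mostly below; with library size alone the median of all genes moves up by 0.28.

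Of 23 tested genes of glycolysis 11 rose and 4 fell (median 0.26), against 20.6% and 21.7% of all genes. The risers were mainly from aldolase onward and the fallers were ALDOC, PFKM, SLC2A3 and PFKFB4. PKM, the pyruvate kinase, was at 709, 738, 635 and 534 CPM without inhibitors and 1470, 1721, 1816 and 1909 CPM with them (log2 1.40, SE 0.18, adjusted p = 6.21e-05), with no overlap. GAPDH and ENO1, which act earlier in the same stretch, were at 2325, 2446, 2222 and 2457 CPM without inhibitors and 3188, 3266, 3812 and 3764 CPM with them for GAPDH and 1263, 1277, 1186 and 950.5 CPM without inhibitors and 1735, 1923, 1956 and 1991 CPM with them for ENO1 (log2 0.57, SE 0.16, adjusted p = 0.0101 for GAPDH and log2 0.70, SE 0.13, adjusted p = 0.000693 for ENO1). Both genes showed no overlap. PGAM1, TPI1 and LDHA rose by 1.30, 0.98 and 1.00 (SE 0.16, 0.17 and 0.14), and the glucose transporter SLC2A1 from 40.5 to 80.0 CPM (log2 0.98, SE 0.10). The hexokinases HK1 (-0.28) and HK2 (0.18) did not pass, and PFKFB4, which sets the pace of glycolysis, fell (log2 -0.68, SE 0.17).

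TXNIP (chromosome 1, 145992435 to 145996600), which blocks glucose uptake and binds thioredoxin, was among the 12 strongest falls of genes of at least 10 CPM. Its levels were 386, 323, 433 and 357 CPM without inhibitors and 66.8, 36.0, 44.9 and 25.3 CPM with them. The highest treated library was far below the lowest untreated one (log2 -3.12, SE 0.44, adjusted p = 0.00016, 8.67-fold lower). Of 26 genes of the hypoxia response, several of which are glycolytic, 7 rose and 4 fell (26.9% and 15.4%), against 20.6% and 21.7% of all genes. HIF1A rose (log2 0.69, SE 0.20), while VEGFA (-0.83) did not pass.

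Respiratory chain genes rose with few falls, against 20.6% of all genes higher and 21.7% lower. Of 38 complex I genes 20 rose and 1 fell (median 0.39), of 41 genes of complexes III to V 14 rose and 2 fell (median 0.21), and of 28 genes of mitochondrial import 17 rose and 3 fell (median 0.40). NDUFC2, a membrane subunit of complex I, rose from 50.1 to 94.8 CPM (log2 0.92, SE 0.14, adjusted p = 0.000151), ATP5G3, the ring subunit of ATP synthase, from 83.6 to 146 CPM (log2 0.80, SE 0.14) and HSPE1, the mitochondrial chaperonin partner, from 91.7 to 195 CPM (log2 1.09, SE 0.18). Of 34 genes of the citric acid cycle 10 rose and 5 fell, among them DLD, shared by its dehydrogenases (log2 0.67, SE 0.10), and citrate synthase CS (log2 -0.38, SE 0.10).

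Lipid genes were split. Of 32 genes of fatty acid oxidation 6 rose and 8 fell (18.8% and 25%), near the 20.6% and 21.7% of all genes. Of 30 genes of synthesis and uptake 5 rose and 9 fell (16.7% and 30%). Their medians were -0.05 and -0.09, both positive with library size alone. ACADM, the medium-chain dehydrogenase, rose (log2 0.63, SE 0.11) and ACAD11 fell from 37.1 to 15.3 CPM (log2 -1.28, SE 0.17, adjusted p = 7.19e-05). The acyl-CoA synthetase ACSL1 fell (log2 -0.61, SE 0.11) and the transporter SLC27A4 rose (log2 0.80, SE 0.14). PPARA, the nuclear receptor that induces fat oxidation, fell from 16.9 to 9.59 CPM (log2 -0.82, SE 0.21). Of 28 cholesterol genes 6 rose and 4 fell. Among 10 ketone body genes 4 rose and 2 fell: the monocarboxylate transporter SLC16A6 was at 8.93, 11.002, 8.73 and 20.2 CPM without inhibitors and 63.3, 52.2, 64.8 and 67.5 CPM with them (log2 2.34, SE 0.33, adjusted p = 0.000132), and OXCT1, which commits ketone bodies to oxidation, rose from 38.2 to 68.3 CPM (log2 0.84, SE 0.14).

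Redox, iron and amino acid genes held single strong changes. Of 35 NRF2 targets and glutathione genes 14 rose and 7 fell (median 0.21), against 20.6% and 21.7% of all genes. GCLM, of glutathione synthesis, rose from 12.04 to 30.4 CPM (log2 1.33, SE 0.22), the peroxidase PRDX1 from 171 to 385 CPM (log2 1.17, SE 0.19) and the aldose reductase AKR1B1 from 49.2 to 97.4 CPM (log2 0.98, SE 0.14), while AKR1C2 fell (log2 -1.01, SE 0.25) with overlapping groups. TFRC (chromosome 3, 196027183 to 196082189), the transferrin receptor through which cells take up iron, was at 16.7, 17.3, 18.4 and 20.4 CPM without inhibitors and 208, 240.3, 194 and 235 CPM with them. Each group was tight and the groups lay far apart, a 12.1-fold rise (log2 3.59, SE 0.43, adjusted p = 5.92e-05). Of the other 21 iron genes tested SLC39A14, HMOX1 and STEAP1 rose, FBXL5, the sensor that degrades iron regulatory proteins, fell (log2 -0.45, SE 0.09), and the ferritin genes FTH1 (0.31) and FTL (-0.13) did not pass. Of 28 ATF4 targets and amino acid transporters 2 rose and 4 fell (median -0.28), which became 4 and 2 (median 0.21) without untreated replicate 4 and treated replicate 1. Of 22 serine, glycine and one-carbon genes 5 rose and 4 fell (22.7% and 18.2%), near the shares of all genes. ALDH1L2, a mitochondrial folate enzyme, fell from 60.1 to 15.1 CPM (log2 -1.996, SE 0.25, adjusted p = 5.94e-05), and CBS and CTH, which turn homocysteine into cysteine, fell by 1.26 and 1.53 on the log2 scale.

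**Figure D4:**
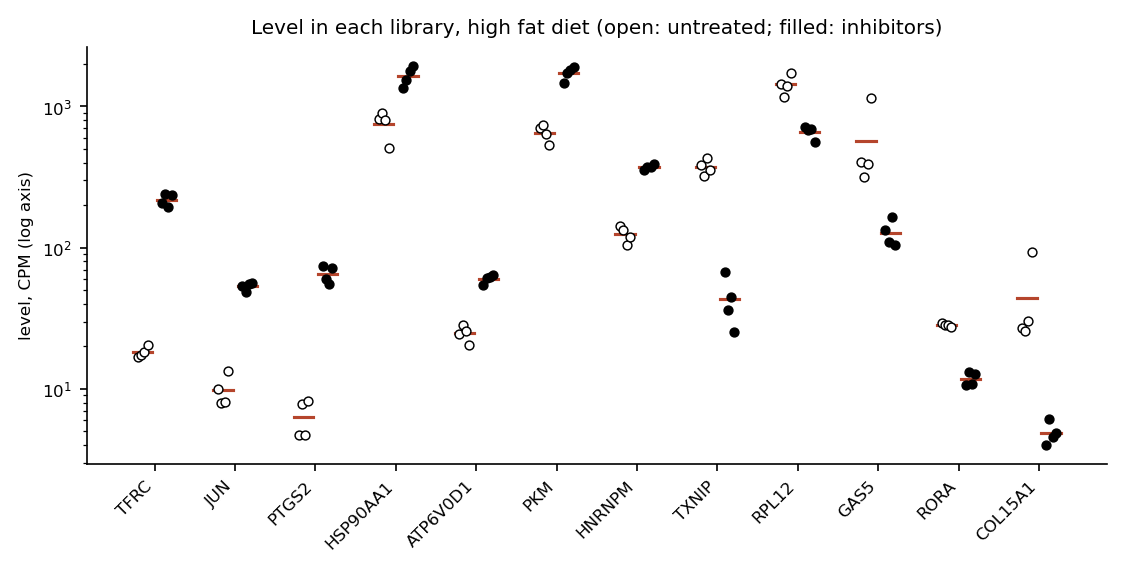
Level in each library, in CPM on a log axis, of 12 genes the text describes on the high fat diet; open points are the 4 untreated and filled points the 4 treated libraries, and the bars are the group means. In all 12 the groups do not overlap; TFRC rises from 16.7 to 20.4 CPM to 194 to 240 CPM, and TXNIP falls from above 300 to below 70 CPM.

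Genes of the circadian clock fell more often than they rose. Of 22 tested 12 fell and 2 rose (median -0.60; 11 or 12 lower without single libraries, 6 with library size alone), against 21.7% of all genes lower. RORA (chromosome 15, 60488284 to 61229319), the receptor that activates the clock gene ARNTL, was at 29.2, 28.5, 28.3 and 27.5 CPM without inhibitors and 10.6, 13.2, 10.8 and 12.8 CPM with them. The groups did not overlap (log2 -1.26, SE 0.16, adjusted p = 4.58e-05). The repressors NR1D1 and NR1D2, which act at the same sites, fell by 0.79 and 0.62 on the log2 scale (SE 0.19 and 0.09), and the feedback repressors PER1, PER3 and CRY2 fell by 0.94, 2.42 and 0.42. The output factors DBP and TEF fell by 1.47 and 0.73, and NPAS2, a partner of ARNTL, fell by 0.77. ARNTL itself (0.32) and CLOCK (0.27), the positive limb, did not pass, and ARNTL2 rose (0.66). The hour of collection is not given in the labels, and its part was not tested.

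The E-box CACGTG, to which ARNTL and CLOCK bind and which is also the core of the lysosomal motif above, was in the 250 bases upstream of 6 of 20 clock genes with an entry (4 of 12 lower ones: PER1, NR1D2, TEF and BHLHE41), against 7.73% of all genes. For PER1 and NR1D2 100 bases are shown with the box in capitals; the capitals that open the NR1D2 stretch are the end of a second box.
PER1 (chr17:8152525-8152624, minus strand): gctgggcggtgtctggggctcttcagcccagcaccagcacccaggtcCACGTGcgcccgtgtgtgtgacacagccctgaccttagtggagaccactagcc
NR1D2 (chr3:23945969-23946068, plus strand): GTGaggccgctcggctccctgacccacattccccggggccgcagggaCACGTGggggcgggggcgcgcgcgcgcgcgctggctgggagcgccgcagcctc

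Nuclear receptors as a family fell more often than they rose, 10 against 4 of 32 (median -0.26), 4 of the 10 being clock genes, against 21.7% of all genes lower; with library size alone 4 fell and 5 rose (median -0.01). Of 24 targets of p53 11 fell and 2 rose (median -0.27), against 21.7% and 20.6% of all genes. That split did not hold without untreated replicate 4, with 6 lower and 6 higher, or with library size alone, with 4 lower and 5 higher, and 7 were lower without treated replicate 1, 2 or 4. ZMAT3, an RNA-binding target of p53, was at 46.3, 37.2, 51.4 and 41.1 CPM without inhibitors and 22.6, 20.1, 18.1 and 18.6 CPM with them (log2 -1.15, SE 0.16, adjusted p = 7.86e-05), with no overlap. CCNG1 fell from 201 to 94.0 CPM (log2 -1.10, SE 0.17), and the death gene BBC3, which encodes PUMA, from 15.2 to 7.29 CPM (log2 -1.06, SE 0.22). CDKN1A (0.35) and MDM2 (0.24), the most used p53 readouts, did not pass. In the BCL2 family 3 of 18 rose and 2 fell; BCL2A1, a survival gene of the melanocyte lineage, rose from 15.1 to 42.0 CPM (log2 1.48, SE 0.18, adjusted p = 3.81e-05).

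Few lineage genes changed, against 20.6% of all genes higher and 21.7% lower. Of 21 melanocyte and neural crest genes 2 rose and 3 fell; SOX10 (-0.05) and MITF (-0.07), the lineage's transcription factors, did not pass. Of 37 cancer testis antigens 11 rose and 2 fell (median 0.25), 8 of the 11 in the MAGE family. MAGEC2 rose from 105 to 174 CPM (log2 0.72, SE 0.09, adjusted p = 3.92e-05) and MAGEA4 from 341 to 591 CPM (log2 0.79, SE 0.11). Near-identical copies make single MAGE and BAGE genes uncertain. Of 15 S100 genes 6 rose and 0 fell, but 2 did without untreated replicate 1, 2 or 3, 3 without treated replicate 2 or 4, 1 without treated replicate 3, and 0 without the libraries above 30% ribosomal RNA; S100A4, linked to motility, was at 79.2, 93.2, 63.9 and 181 CPM without inhibitors and 224, 342, 344 and 316 CPM with them (log2 1.56, SE 0.41, adjusted p = 0.00828).

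PTGS2, the inducible cyclooxygenase, was at 4.71, 7.88, 4.71 and 8.21 CPM without inhibitors and 73.8, 59.6, 55.8 and 71.9 CPM with them, with no overlap (log2 3.35, SE 0.59, adjusted p = 0.000673). Of 23 genes of NF-kB and inflammatory cytokines 5 rose and 0 fell, against 20.6% of all genes higher and 21.7% lower. The share that rose, 21.7%, was near that of all genes. Higher members numbered 2 when any of untreated replicates 1 to 3 or treated replicates 1 and 2 was left out. They numbered 1 without the libraries above 30% ribosomal RNA. IL1B and CXCL8 rose by 2.08 and 1.21 (SE 0.61 and 0.42), and CXCL8 did not pass when any of 6 of the 8 libraries was left out (adjusted p up to 0.0933, without treated replicate 1). Of 26 interferon-stimulated genes 6 rose and 3 fell, IFIT3 the clearest (log2 1.5002, SE 0.15, adjusted p = 8.48e-06) and IFIH1, a sensor of viral RNA, in the other direction (log2 -1.11, SE 0.30). Of 24 antigen presentation genes 6 rose and 2 fell, with 2 to 5 higher when any library was left out; CALR is one of them, and the peptide transporter TAP1 fell (log2 -0.41, SE 0.12).

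Extracellular matrix genes fell more often than they rose, against 21.7% of all genes lower and 20.6% higher. Of 41 laminins, nidogens and proteoglycans 20 fell and 4 rose (median -0.57), and of 36 collagens 12 fell and 1 rose (median -0.33; with library size alone 6 fell and 3 rose, median -0.04). COL15A1, a collagen of basement membranes, was at 27.2, 25.8, 30.2 and 93.2 CPM without inhibitors and 4.001, 6.09, 4.55 and 4.85 CPM with them. Untreated replicate 4 was far above the rest, and the other 3 untreated libraries were still above all treated ones (log2 -3.18, SE 0.43, adjusted p = 0.000111). COL5A1, which nucleates collagen fibrils, fell from 43.0 to 17.8 CPM (log2 -1.27, SE 0.14, adjusted p = 2.64e-05), and COL6A2, COL5A2 and COL4A2 fell by 0.86, 0.63 and 0.47 on the log2 scale. LAMB1, a laminin chain, fell from 1221 to 806 CPM (log2 -0.60, SE 0.16), NID1 from 881 to 544 CPM (log2 -0.69, SE 0.20), and the proteoglycan VCAN from 85.7 to 29.9 CPM (log2 -1.52, SE 0.23, adjusted p = 0.000164). FN1, fibronectin, was at 0.04 and did not pass. SDC1, a cell surface proteoglycan, and THBS1, an inhibitor of vessel growth, rose by 1.43 and 0.81. The fall of ACTA2 and PDGFRB and the rise of COL3A1 are given above with the fibroblast markers; their part in the matrix genes was not tested.

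LOXL4, a collagen crosslinking oxidase, was the largest loss in level outside the translation and ribosomal RNA genes, with 2172, 2112, 2371 and 1514 CPM without inhibitors and 1029, 792, 655 and 678 CPM with them (log2 -1.37, SE 0.40, adjusted p = 0.0123), and SERPINE2, an inhibitor of matrix proteases, the largest gain of all, with 2814, 3337, 2474 and 4247 CPM without inhibitors and 6060, 5529, 4605 and 5045 CPM with them (log2 0.72, SE 0.17, adjusted p = 0.00265). Neither showed an overlap. Of 57 matrix enzymes and inhibitors 10 rose and 15 fell (17.5% and 26.3%), against 20.6% and 21.7% of all genes. MMP14, a membrane collagenase, rose (log2 0.64, SE 0.08, adjusted p = 5.10e-05). Of 22 integrins 2 rose and 4 fell, with ITGA3, a laminin receptor, falling from 269 to 141 CPM (log2 -0.93, SE 0.18). ZEB1 and SNAI2, transcription factors of the mesenchymal program, fell from 95.0 to 42.6 CPM (log2 -1.16, SE 0.15, adjusted p = 5.65e-05) and from 24.9 to 10.96 CPM (log2 -1.18, SE 0.25).

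Among cytoskeletal genes the abundant ACTB, cytoplasmic actin, was at 501, 534, 490.2 and 502 CPM without inhibitors and 977, 1099, 1039 and 1128 CPM with them (log2 1.07, SE 0.14, adjusted p = 7.11e-05), TUBA1B at 650.3, 652, 628 and 324 CPM without inhibitors and 1046, 1331, 1287 and 1409 CPM with them (log2 1.17, SE 0.26, adjusted p = 0.00212) and TUBB at 502, 584, 554 and 337 CPM without inhibitors and 811, 984, 955 and 1041 CPM with them (log2 0.94, SE 0.21, adjusted p = 0.00217). None of these 3 overlapped, and untreated replicate 4 was the lowest for both tubulins. PPIA, the cyclophilin, was a further large gain, at 893, 783, 796 and 698 CPM without inhibitors and 1150, 1245, 1489 and 1350 CPM with them (log2 0.72, SE 0.15, adjusted p = 0.00136). ACTB and GAPDH are widely used as reference genes. Of 80 actin and myosin genes 23 rose and 11 fell, against 20.6% and 21.7% of all genes. Among the risers were the actin depolymerising factor CFL1 (1.04) and the Arp2/3 subunit ARPC5 (0.70). Of 66 tubulin, dynein and cilia genes 16 rose and 19 fell; DNAH9, an axonemal dynein, was at 33.9, 37.1, 37.4 and 17.99 CPM without inhibitors and 5.42, 5.12, 3.19 and 3.63 CPM with them (log2 -2.86, SE 0.27, adjusted p = 7.59e-06). Ion channel genes fell in 35 of 108 and rose in 10 (median -0.27, and 0.00 with library size alone), TRPM4, a calcium-activated cation channel, from 46.9 to 22.2 CPM (log2 -1.08, SE 0.14, adjusted p = 6.42e-05).

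The 12 highest folds among genes of at least 10 CPM whose groups did not overlap were those of TFRC, PTGS2 and JUN, described above, and of FGL2, TTR, ESM1, AREG, DKK1, C1QTNF3, ACPP, STC1 and EVI2A. FGL2, a fibrinogen-like protein, went from 2.45, 1.49, 2.23 and 2.52 to 92.8, 38.3, 90.1 and 103 CPM and TTR, the plasma carrier of thyroid hormone, from 1.26, 2.01, 1.03 and 0.927 to 57.5, 24.0, 54.8 and 35.1 CPM. In both the groups lay far apart, and TTR is one of the plasma markers given above. C1QTNF3, a secreted C1q-like protein, rose 8.08-fold (log2 3.01, SE 0.29, adjusted p = 1.29e-05). EVI2A lies within an intron of NF1 and rose from 2.60 to 13.9 CPM (log2 2.41, SE 0.26), whereas NF1 fell.

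AREG, a ligand of the EGF receptor, was at 2.15, 3.98, 1.29 and 10.3 CPM without inhibitors and 25.2, 29.7, 57.9 and 64.5 CPM with them, and DKK1, a secreted WNT antagonist, at 1.85, 2.45, 2.08 and 6.46 CPM without inhibitors and 17.6, 35.6, 30.4 and 24.1 CPM with them (log2 3.31, SE 0.80 and log2 3.06, SE 0.59). ESM1, a proteoglycan of activated endothelium, was at 0.253, 0.650, 0.287 and 1.87 CPM without inhibitors and 8.08, 13.1, 17.8 and 9.47 CPM with them (log2 3.97, SE 0.61), and STC1, a secreted glycoprotein, at 11.8, 22.6, 8.18 and 42.4 CPM without inhibitors and 145, 90.7, 139 and 106 CPM with them (log2 2.50, SE 0.43). In these 4 the highest untreated library was replicate 4, still below all treated ones. ACPP, a phosphatase, rose from 12.4 to 86.8 CPM (log2 2.80, SE 0.35), also with its highest untreated value in replicate 4.

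The 12 lowest folds were those of LDB2, COL15A1, TXNIP, BEST1, TMEM59L, NRCAM, DNAH9, ABCB4, GPR153, ITIH6, WSCD1 and ANK1. LDB2, a cofactor of LIM proteins, went from 13.8, 16.7, 14.7 and 8.70 to 1.44, 0.795, 0.239 and 0.342 CPM and fell furthest (log2 -4.27, SE 0.56). GPR153, an orphan receptor, was, after TXNIP, the highest of the 12 in untreated libraries, at 299, 293, 277 and 267 CPM without inhibitors and 56.3, 52.2, 33.0 and 30.1 CPM with them (log2 -2.73, SE 0.34, adjusted p = 6.06e-05). WSCD1 had the smallest p of the 12, from 60.1 to 9.95 CPM (log2 -2.59, SE 0.20, adjusted p = 2.20e-06). The chloride channel BEST1 and TMEM59L, a membrane protein of neurons, were highest in untreated replicate 4 (15.3, 11.2, 14.3 and 47.5 and 39.3, 37.3, 32.9 and 72.3 CPM) and fell by 3.01 and 2.93. NRCAM, a neural adhesion molecule, ABCB4, a phospholipid transporter, ITIH6, of the inter-alpha-trypsin inhibitor family, and ANK1, an ankyrin, fell by 2.87, 2.82, 2.62 and 2.51.

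The same inhibitors changed fewer genes on the ketogenic diet, 279 of 16012 (1.74%), and the difference between the effects on the 2 diets passed for 1444 genes (9.02%), 746 with a higher and 698 with a lower effect on the high fat diet. Of the 6771 genes called on the high fat diet 1359 had such a difference, in each case of the same sign as the high fat effect. Of the 6771, 188 passed in the same direction on both diets (100 higher and 88 lower). The number of differences is unstable: it was 407 to 2636 without single libraries, lowest without untreated ketogenic replicate 2, and 0 without the 3 libraries above 30% ribosomal RNA (2919 at an unadjusted p under 0.05). Every difference below carries that limit.

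TFRC rose by 3.59 on the high fat and was at 0.55 on the ketogenic diet, a difference of 3.04 (SE 0.56, adjusted p = 0.0104). ESM1 and DKK1 had differences of 3.44 and 3.17, and TXNIP, COL15A1 and PKM of -2.41, -2.28 and 1.2002. For TMEM59L, BEST1, ABCB4 and C6orf48 the ketogenic effect was -0.02, -0.12, 0.00 and 0.28, none past the test, with differences of -2.91, -2.89, -2.82 and -2.60. TRHDE, a peptidase that degrades thyrotropin-releasing hormone, had effects past the test in opposite directions, 1.35 against -1.31 (difference 2.66, SE 0.28, adjusted p = 0.000593). IL37, an anti-inflammatory cytokine, fell on the ketogenic diet (-2.0004) and did not pass on the high fat diet (0.82), and FXYD3, a regulator of the sodium pump, fell on the high fat diet (-1.70) and did not pass on the ketogenic one (1.05). Their differences were 2.82 and -2.75.

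By group, against 4.66% of all genes with a higher and 4.36% with a lower effect on the high fat diet, the difference passed for 11 of 39 lysosomal genes with a higher and 1 with a lower effect, 15 and 2 of 74 SR and hnRNP genes, 0 and 10 of 22 small nucleolar RNA hosts, 0 and 9 of 83 cytosolic ribosomal proteins, and 4 and 0 of 33 proteasome genes. FGL2, TTR, LDB2 and C1QTNF3 changed on both diets, with ketogenic effects of 4.96, 3.90, -3.60 and 2.37 and differences between the diets that did not pass. None of the 45 genes of the cascade and its inhibitors passed on the ketogenic diet, and the difference passed for 2 of them, ARAF (0.45, SE 0.11) and GRB2 (0.43, SE 0.12). Of 22 clock genes RORA, RORB and PER3 fell on the ketogenic diet, and the difference for RORA was -0.15 (adjusted p = 0.674).

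**Figure D5:**
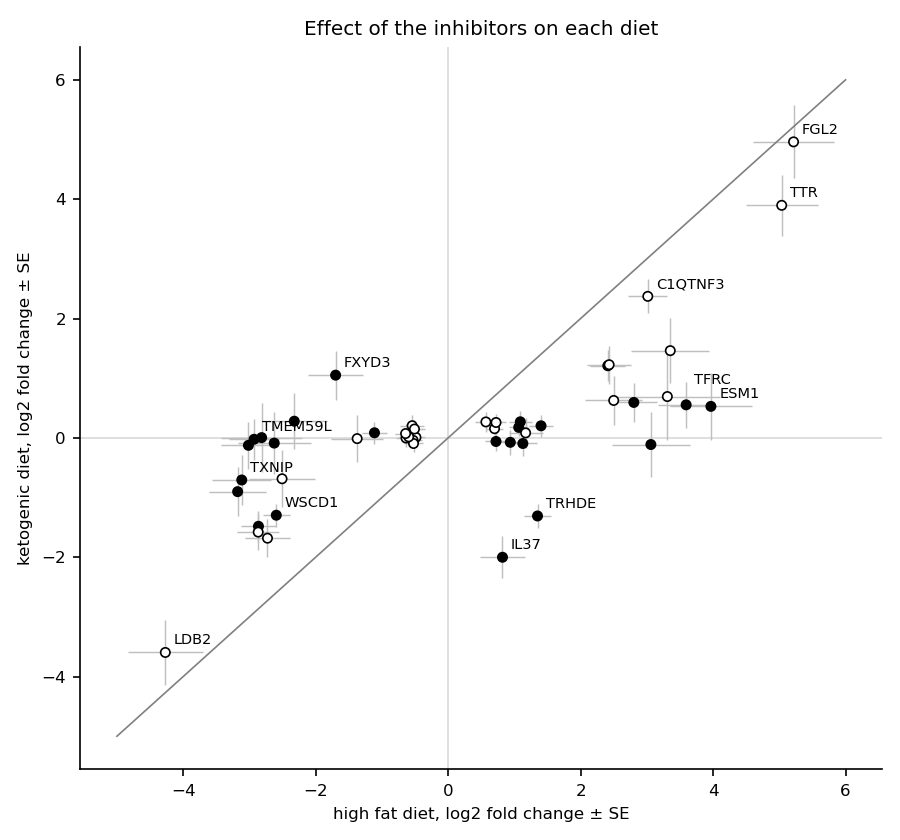
Log2 fold change under inhibitors on the high fat diet (horizontal) and on the ketogenic diet (vertical), each with its standard error, for the 48 genes that lead by fold, by change in level or by difference between the diets. Filled points have a difference between the diets past the test, and the diagonal marks equal effects. FGL2, TTR and LDB2 lie near the diagonal and TFRC, TXNIP and TMEM59L near a ketogenic effect of 0.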

How the data were processed

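Poly-A RNA of 16 libraries, 4 in each of 4 groups of diet and treatment, was sequenced. The authors deposited 1 table of estimated counts per gene, made with Bowtie2 2.1.0, RSEM 1.2.15 and the human build hg38, per the submitters' processing notes; which annotation was used, whether strand was counted and how reads of the mouse host were treated is not given in the sources used here. Estimated counts (13% were not whole) were rounded. Near-identical gene copies can share them, and mouse reads that align to human genes, if they were kept, cannot be told apart from human ones.

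All 16 libraries, those of the ketogenic diet included, were fitted together with edgeR 4.0.16 in R 4.3.3 (filterByExpr, TMM, quasi-likelihood test, 1 mean per group), with limma 3.58.1 and DESeq2 1.42.0 as alternatives. 16012 genes were tested, with Benjamini-Hochberg adjustment over all of them at 0.05, for the inhibitor effect on the high fat diet and for its difference from that on the ketogenic diet. Group levels are means of CPM on scaled library sizes, and fold changes come from the fit. The 84 gene lists, 2 of them set aside, and the members were chosen with earlier results of these data known, so a list is described by its counts and median beside those of all genes, with no test of its own. Genes were named where they were among the 12 largest folds per direction at 10 CPM or more or the 10 largest changes in level per direction (both with no overlap of the groups and outside the lists set aside and ribosomal RNA), leaders of a list at 5 CPM or more, members of the MAPK lists, or among the 5 largest differences between diets per direction. The list leaders and the differences between diets are given in part, and some genes under these rules are not reported here. Of 292 genes named, 173 fell under these rules and 119 were chosen after their values were seen. Gene positions are those of GENCODE 29 (GRCh38), and upstream sequences are those of RefSeq (GRCh38.p14).

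Replicate numbers were not used as pairs. On simulated counts 200 of 16012 genes were changed. The test of the high fat effect recovered 33% at 1.5-fold and 74% at 2-fold, with 7 unchanged genes called. The test of the difference recovered 5% and 49%, with 0 called. In the data 42.3% of genes were called on the high fat diet, and recovery at an adjusted threshold depends on the share of changed genes. These figures therefore do not give the recovery of the reported tests. Alternatives were other size factors, filters and tools, the replicate block, a minimum fold of 1.5, fewer libraries and single libraries left out; library size alone and the removal of 2 libraries that stood apart were added after seeing the data.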

Additional observations from a re-analysis of the deposited data

Results flagged for a closer look

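Single libraries lay far from the other 3 of their group in 50 of 584 groups of 4 values, 1 group for each named gene and treatment (the gap to the nearest value over the range above Dixon's critical value). Chance flags about 1 in 20 groups. Untreated replicate 4 gave 31 of the 50 and treated replicate 1 gave 10. In untreated replicate 4 the value was the highest for 27 genes. Among genes of protein folding stress and of its ATF4 arm these were CANX 764, CBS 106, CTH 32.2, DDIT3 59.6, EDEM1 56.5, HSPA5 975 and TRIB3 123 CPM. Among genes of the ERK pathway and its targets they were CCND1 406, DUSP6 485, EGR1 135, EPHA2 71.5, ETV4 214, PEA15 158 and SPRY2 385 CPM. Those of p53 targets, small nucleolar RNA hosts and other intracellular genes were CDKN1A 166, GAS5 1156, MDM2 73.7, RAB22A 34.8, RPS26 152 and ZFAS1 416 CPM, and those of secreted and membrane proteins BEST1 47.5, COL15A1 93.2, DKK1 6.46, IL1B 21.9, SDC1 7.17, TMEM59L 72.3 and VEGFA 86.3 CPM. The same library was the lowest for GAB1 (6.58 CPM), GLB1 (53.8 CPM), HK2 (70.2 CPM) and TUBA1B (324 CPM).

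Treated replicate 1 was the highest for BEST1 (3.93 CPM), CRY2 (6.86 CPM), CUL7 (62.4 CPM), DUSP6 (510.1 CPM), HK2 (99.96 CPM), NTN1 (13.6 CPM) and RASA3 (118 CPM), and the lowest for LDHA (734 CPM), NRAS (57.5 CPM) and TRIB3 (26.1 CPM). Of the other libraries, untreated replicate 1 was the highest for ARPC5 (151 CPM), ATP5G3 (95.2 CPM) and RPS2 (2907 CPM) and untreated replicate 2 for AMACR (165 CPM). Treated replicate 3 was the highest for CDKN1A (154 CPM) and ZFAS1 (67.3 CPM) and the lowest for PDIA6 (495 CPM). Treated replicates 2 and 4 were the lowest for CRYAB (11.99 CPM) and RPS2 (1404 CPM). Without untreated replicate 4 and treated replicate 1 together 6702 genes passed on the high fat diet against 6771.

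The effect of the inhibitors differed between the diets, by the interaction term of edgeR's quasi-likelihood test, for 95 of the named genes, 59 with a higher and 36 with a lower effect on the high fat diet. Each value in parentheses here is that difference of log2 fold changes, high fat minus ketogenic. Metabolic genes with a higher effect on the high fat diet were TFRC (3.04), SLC16A6 (1.54), PKM (1.2002), PGAM1 (1.02), HSPE1 (0.96), AKR1B1 (0.87), LDHA (0.86), NDUFC2 (0.77), SLC2A1 (0.68), HPRT1 (0.63), DLD (0.55) and SLC39A14 (0.49). Those with a lower one were ALDH1L2 (-1.52), CBS (-1.17), ACAD11 (-1.15) and ACSL1 (-0.63). In protein folding, export and turnover the effect was lower for SGSH (-0.69) and higher for HSP90AA1 (1.22), CRYAB (0.93), ATP6V0D1 (0.90), CRELD2 (0.78), CTSB (0.76), CTSA (0.74), PDIA4 (0.73), ATP6V1H (0.71), ATP6V0C (0.69), PSMA4 (0.63), PSMD6 (0.59), PDIA6 (0.54) and ATP6AP2 (0.39). Genes of RNA, translation and chromatin with a higher effect were HNRNPM (1.15), SRSF3 (1.09), HNRNPA2B1 (0.82), U2AF1 (0.81), MRPL16 (0.62), HDAC1 (0.57), SRSF6 (0.56) and MED17 (0.47), and with a lower effect C6orf48 (-2.60), GAS5 (-2.42), ZFAS1 (-2.35), SNHG8 (-1.67), TAF1D (-1.40), RPL12 (-1.20), ZNF204P (-1.19), EIF4A2 (-0.90), EZH1 (-0.74), PAN2 (-0.73) and KAT8 (-0.59). Signalling genes with a higher effect were DKK1 (3.17), ROBO4 (2.46), KDR (1.52), NTN1 (1.15), MAPK8 (0.78), HMGA2 (0.52), ARAF (0.45) and GRB2 (0.43), and IGF2BP2 (-0.91) had a lower one. Cytoskeleton, matrix and membrane genes were higher for CORO1A (3.06), SDC1 (1.75), THBS1 (1.31), TUBB (1.01), ACTB (0.89), SERPINE2 (0.78), CFL1 (0.73), ARPC5 (0.57), MMP14 (0.49) and RAB22A (0.42) and lower for ABCB4 (-2.82), COL15A1 (-2.28), DNAH9 (-1.38), ACTA2 (-1.24), ZEB1 (-0.83) and COL6A2 (-0.80). For genes of survival, repair and other groups the effect was higher for UHRF1 (2.18), BCL2A1 (1.00) and MAGEC2 (0.44) and lower for EPB41L4A-AS1 (-2.24), BBC3 (-1.04), ZMAT3 (-0.93), FOXD2-AS1 (-0.90), CCNG1 (-0.81) and RAD52 (-0.70). Outside the gene lists it was higher for ESM1 (3.44), IL37 (2.82), TRHDE (2.66), ACPP (2.21) and EVI2A (1.2013) and lower for TMEM59L (-2.91), BEST1 (-2.89), FXYD3 (-2.75), ITIH6 (-2.54), TXNIP (-2.41), AGER (-1.59) and WSCD1 (-1.30). CORO1A, ROBO4, KDR, ACTA2 and AGER are among the markers of other cell types.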

How the results depend on the processing

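Of the 6771 genes called on the high fat diet, 1180 passed when a change of at least 1.5-fold was required (glmTreat), 9969 with limma voom and quality weights and 3858 without the 3 libraries above 30% ribosomal RNA; single libraries left out gave 5446 to 6779, of which 5359 to 6086 were among the 6771. DESeq2, RLE factors, scaling without ribosomal RNA, the other filters and library size alone gave 6087 to 7302, and the 8 libraries alone 7544. With the replicate number as a block 6826 genes passed, and 1433 for the difference between the diets; deviations of libraries with the same number correlated by 0.08, 0.00, -0.06 and 0.05, so the numbers pair nothing, and the block moved neither count by over 1.5 times. The 1444 differences became 2487 with DESeq2, 5272 with voom, 238 with library size alone, 0 without the libraries above 30% ribosomal RNA (2919 at an unadjusted p under 0.05), and 407 to 2636 without single libraries. The number moved by over 1.5 times without untreated replicates 1 and 3 (722 and 500), treated replicates 2, 3 and 4 (599, 684 and 566), ketogenic untreated replicates 1, 2 and 3 (455, 407 and 769) and ketogenic treated replicates 1 and 4 (662 and 2636). The cause was not tested. With library size alone, which raises the median of all genes by 0.28, the 124 named higher genes kept the call and 60 of the 108 lower ones did; 24 of 82 list medians changed sign. Of 103 list counts of at least 5 genes, 29 moved over 1.5 times without some library and 75 were at least 1.5 times lower without the libraries above 30% ribosomal RNA. Of 232 named called genes, 192 kept the call under every alternative chosen at the start but glmTreat and 17 lost it without some single library. Beside those given in the report, with the highest adjusted p in edgeR's quasi-likelihood test, these were NPC1 (0.147) and SERP1 (0.128) without untreated replicate 4, GLB1 (0.11), TEF (0.0864) and COL4A2 (0.056) without treated replicate 3, CXCL8 (0.0933) without treated replicate 1, POM121L2 (0.0567) without treated replicate 4, ROBO4 (0.053) without treated replicate 2 and PDIA6 (0.054) without untreated replicate 3. GLB1 was the 1 called gene whose sign turned (0.0405 with library size alone). Without single libraries the ranges that crossed 0, in genes that did not pass, were AXL -0.0708 to 0.60, CCND1 -0.07003 to 0.26, ETV5 -0.0353 to 0.0348, FN1 -0.0859 to 0.19, MAP2K2 -0.11 to 0.0341, MRAS -0.0296 to 0.08003, PTPN11 -0.0414 to 0.0114, SHC1 -0.0259 to 0.0415, SOX10 -0.0911 to 0.0202, SPRED2 -0.0394 to 0.11 and TFE3 -0.0825 to 0.0417. Signs also turned in such genes: with library size alone ETV5 0.28, FTL 0.16, GAB1 0.12, HK1 0.022, MAP2K2 0.21, MITF 0.23, MYC 0.0041, PSME4 0.15, PTPN11 0.25, RASA3 0.12, SOX10 0.21, SPRED3 0.0408 and TFE3 0.28, without the libraries above 30% ribosomal RNA AXL -0.26, CCND1 -0.19, EGR1 -0.17, ETV5 0.0341, MITF 0.0185 and TFE3 0.0901, at 1 CPM or more in 4 libraries CCND1 -0.00186 and SHC1 -0.00789. Further such values were, with ribosomal RNA removed before scaling ETV5 0.0017 and TFE3 0.00337, with the 8 libraries alone ETV5 0.00138 and TFE3 0.00364, with voom FN1 -0.12, MRAS -0.0317 and PTPN11 0.00347, without untreated replicate 4 and treated replicate 1 FN1 -0.0593, MRAS -0.02996, PTPN11 0.00595 and TRIB3 0.0275.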

Other observations

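Genes of transcription and RNA decay changed in both directions, against 20.6% of all genes higher and 21.7% lower. Of 46 genes of Mediator and RNA polymerase II 16 rose and 5 fell (median 0.20), and 7 and 2 without the libraries above 30% ribosomal RNA; MED17, of the Mediator head, was at 0.69 among the first and MED15, of its tail, at -0.54 among the second. Of 39 RNA decay genes 10 rose and 3 fell, but 1 and 2 without the libraries above 30% ribosomal RNA and 5 rose without treated replicate 2; PAN2, a deadenylase subunit, fell (log2 -0.92, SE 0.14). Rab GTPases and exocytosis genes gave 27 higher and 17 lower of 98, with RAB22A, of early endosomes, at 0.82 and RAB3D, of secretory granules, at -1.09, while of 30 coat and retrieval genes 3 rose and 5 fell, KDELR3, a receptor that returns chaperones to the endoplasmic reticulum, among them (log2 -1.10, SE 0.18).

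Chromatin writers and readers changed in both directions, against 20.6% of all genes higher and 21.7% lower. In the lists of this paragraph 20.6 to 24.4% of members were higher, near the share of all genes, and 8.82 to 19.5% were lower. Histone methyltransferases and demethylases numbered 10 higher and 8 lower of 41, acetylation genes 7 and 5 of 33, remodelling complexes 7 and 3 of 34, and DNA methylation and polycomb genes 9 and 6 of 37. SUV39H2, which methylates histone H3 in heterochromatin, rose (log2 0.81, SE 0.16), as did the deacetylase HDAC1 (log2 0.78, SE 0.10), and the acetyltransferase KAT8 and the methyltransferase EZH1 fell (log2 -0.89, SE 0.10 and log2 -0.75, SE 0.11).

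Further metabolic and signalling groups held single changes of both signs, against 20.6% of all genes higher and 21.7% lower. The shares of the WNT, Notch and Hedgehog, and YAP and TEAD genes lay near these. HPRT1, which salvages purines, rose from 39.3 to 77.9 CPM (log2 0.99, SE 0.10, adjusted p = 1.16e-05) among 26 nucleotide synthesis genes with 8 higher and 4 lower. Of 18 genes of the pentose phosphate pathway 4 rose and 3 fell, and SPHK1, which makes sphingosine phosphate, rose from 47.0 to 130.2 CPM (log2 1.47, SE 0.20, adjusted p = 7.67e-05; 9 of 36 sphingolipid and phospholipid genes higher, 4 lower). Peroxisome genes numbered 2 higher and 7 lower of 25, with the racemase AMACR at -0.97 (adjusted p = 9.92e-05), and transfer RNA synthetases gave 5 and 9 of 37. Of 40 genes of the TGF-beta and BMP pathway 7 rose and 6 fell (the ligand BMP7 log2 -1.92, SE 0.24), of 44 WNT genes 8 and 10 (the secreted modulator DKK3 log2 -1.78, SE 0.30), of 34 Notch and Hedgehog genes 7 and 6, of 29 YAP and TEAD genes 6 and 6, and of 19 JNK and p38 kinase genes 4 and 2. IGF2BP2, an RNA-binding protein of the insulin-like growth factor axis (2 of 16 higher, 4 lower), was at 184, 189, 211 and 180.2 CPM without inhibitors and 91.2, 80.9, 74.0 and 77.7 CPM with them. Its groups did not overlap (log2 -1.24, SE 0.12, adjusted p = 8.48e-06).

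Surface and adhesion genes changed in both directions. Of 55 guidance genes 7 rose and 14 fell, with the netrin NTN1 at 1.34 and the semaphorin SEMA6B at -2.02. Of 80 cadherins 10 and 14 (CDH13 -1.04), of 38 ABC transporters 7 and 12, and of 47 chemokine and cytokine receptors 5 and 11. Of 21 factors and markers of the mesenchymal program 2 rose and 4 fell, and of 34 ubiquitin ligase genes 4 and 7 (the scaffold CUL7 log2 -1.28, SE 0.22). All these counts stand beside 20.6% of all genes higher and 21.7% lower, and the split turned with library size alone for guidance genes (13 higher, 6 lower), cadherins (17 and 4), ABC transporters (11 and 5) and cytokine receptors (7 and 3), and for cadherins also without the libraries above 30% ribosomal RNA (10 and 4).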
